A study of Homo sapiens with 6 samples.

Results

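RNA-seq values of 10 genes that act on RNA-DNA hybrids, degrade RNA from its 5' end or build the paraspeckle were followed across the libraries. They were 4 subunits or forms of RNase H (RNASEH1, RNASEH2A, RNASEH2B and RNASEH2C), both 5'-3' exoribonucleases (XRN1 and XRN2) and 4 core genes of the paraspeckle (NONO, SFPQ, PSPC1 and NEAT1). A gene was taken where the gene name of a row of the deposited expression table held its symbol, and all 10 were found, with 1 row each, among 27918 rows for genes and loci. The data were RNA-seq of HCT-116 cells, a human colorectal carcinoma line, transfected with antisense LNA GapmeRs at 10 nM. The control group, GapNC, received a negative control GapmeR, the other group, GapC9, received a GapmeR against the lncRNA CASC9, and each had 3 libraries of poly(A) RNA. All 6 libraries had thus been through transfection with a GapmeR, and untransfected cells were not analysed here. The time from transfection to RNA is given as both 24 h and 48 h in the sources.

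A GapmeR is a short oligonucleotide with modified ends and a central stretch of DNA. Once paired with its target RNA it recruits RNase H1, the product of RNASEH1, which cuts the RNA strand of RNA-DNA hybrids, and the fragments are then degraded by the exosome and by the 5'-3' exoribonucleases, XRN2 mainly in the nucleus and XRN1 in the cytoplasm. RNase H2, a complex of a catalytic subunit (RNASEH2A) and both accessory subunits (RNASEH2B and RNASEH2C), also cleaves hybrids and removes single ribonucleotides from DNA. NONO, SFPQ and PSPC1 are the DBHS family of RNA-binding proteins, which assemble on the lncRNA NEAT1 into paraspeckles and also bind phosphorothioate oligonucleotides.

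Sequences that bear on these genes are the control GapmeR, which all GapNC libraries received, and the primers with which the study measured NEAT1 as a nuclear marker. The control GapmeR has 16 bases, and its full complement was found in 0 GENCODE transcripts.

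control GapmeR: gctcccttcaatccaa

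NEAT1 forward primer: gctggacctttcatgtaacggg

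NEAT1 reverse primer: tgaactctgccggtacagggaa

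Both primers have 22 bases and matched 1 transcript, the long form NEAT1-202 of 22743 bases, where they bound an amplicon of 104 bases from base 7516 to base 7619. The amplicon therefore lay outside the short polyadenylated forms of NEAT1, whereas the row of the table pools 6 transcripts, a short form of 3441 bases and the long form among them.

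Promoter windows of 300 bases (250 before and 50 after the annotated start) came from RefSeq on GRCh38.p14 and were matched by symbol for 8 of the 10 genes, with SFPQ and NEAT1 not in the table used. They were searched on both strands for the GC box (GGGCGG), the CCAAT box (CCAAT), an ETS motif (CCGGAAG), the palindromic NRF1 motif, a CRE (TGACGTCA), a TATA box (TATAAA) and an E2F motif (TTTCCCGC). The windows of RNASEH2B, RNASEH2A and NONO are shown because these genes had the smallest p-values of the 10, with motif matches in capitals (ATTGG is a CCAAT box on the other strand).

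RNASEH2B, chr13:50909428-50909727, plus strand: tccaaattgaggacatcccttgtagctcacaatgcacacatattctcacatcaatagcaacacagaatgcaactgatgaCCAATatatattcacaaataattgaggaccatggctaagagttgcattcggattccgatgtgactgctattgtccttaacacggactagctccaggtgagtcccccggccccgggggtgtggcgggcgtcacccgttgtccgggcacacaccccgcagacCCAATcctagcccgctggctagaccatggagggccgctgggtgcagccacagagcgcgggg

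RNASEH2A, chr19:12806334-12806633, plus strand: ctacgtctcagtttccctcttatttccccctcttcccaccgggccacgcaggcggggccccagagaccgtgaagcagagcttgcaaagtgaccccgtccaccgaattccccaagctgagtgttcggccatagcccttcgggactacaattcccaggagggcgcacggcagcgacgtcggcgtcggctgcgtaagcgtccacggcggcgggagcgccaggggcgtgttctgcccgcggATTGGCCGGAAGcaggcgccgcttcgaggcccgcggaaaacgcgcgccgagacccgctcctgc

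NONO, chrX:71283385-71283684, plus strand: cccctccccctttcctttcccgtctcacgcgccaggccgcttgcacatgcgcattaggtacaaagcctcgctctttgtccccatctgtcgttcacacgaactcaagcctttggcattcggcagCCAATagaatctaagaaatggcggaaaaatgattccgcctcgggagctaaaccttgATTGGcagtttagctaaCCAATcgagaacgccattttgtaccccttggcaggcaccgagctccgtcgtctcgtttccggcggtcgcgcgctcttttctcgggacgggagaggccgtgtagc

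All 3 windows held a CCAAT box, as did 34.6% of the 35116 windows in the table. The RNASEH2B window had 2, the NONO window had 3 and the RNASEH2A window had 1, directly next to its ETS motif with no shared base. An ETS motif was present in 10.3% of all windows. A second RNASEH2B window, which starts downstream of the first, held 1 CCAAT box and 1 GC box. No CCAAT box was found in the windows of RNASEH1, XRN1, XRN2, PSPC1 and RNASEH2C. Of these genes, PSPC1 and RNASEH2C also had lower values in the libraries labelled GapC9. Because the 3 windows were chosen by p-value, the box they share is only a description. RNASEH1 had 4 GC boxes and XRN1 had 2 (45.0% of all windows hold one), PSPC1 had 1 NRF1 motif (1.24%), XRN2 had a CRE (1.85%) and RNASEH2C had none of the 7. These are matches of letters and were not tested for binding or for a link to the fold changes.

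The values were FPKM as deposited, that is, fragments scaled by transcript length and library size. From the smallest steps between values, the libraries held about 22.7 to 24.4 M (mega) fragments. The epithelial genes KRT8, KRT18, KRT19, EPCAM and CDH1 were expressed, which does not by itself identify HCT-116 cells. The summed level of 11 colorectal epithelium markers was 995 to 1401 FPKM, most of it from KRT8, KRT18 and KRT19. The differentiation markers VIL1, GPA33, CDH17 and CDX1 were near 0 throughout. KRT20 was at 0.279 FPKM in GapNC and 0.167 FPKM in GapC9, and CDX2 at 2.04 and 2.40 FPKM. Fibroblast markers summed to 4.11 to 5.68 FPKM and endothelium markers to at most 0.0827 FPKM, and the leukocyte sum of 49.9 to 55.8 FPKM lay almost all in the row of CD68, which is joined with EIF4A1 and other genes and so cannot be credited to CD68. The remaining 4 leukocyte markers summed to 0.0231 to 0.172 FPKM, with PTPRC at or near 0. The target of the GapC9 GapmeR, CASC9, was listed at 0, 0.0108 and 0 FPKM in GapNC 1 to 3 and at 0.0528, 0.107 and 0 FPKM in GapC9 1 to 3. CASC9 was thus near 0 in all 6 libraries, where a fall could not have been seen. It was no lower in the libraries labelled GapC9 (two-sided exact permutation test, p = 0.4, where 3 against 3 libraries cannot go below 0.1). These values therefore do not check the labels, and every direction below rests on the labels. In GapNC 1, expression relative to the 6-library mean rose with the GC content of the gene (Spearman's rho = 0.616 over 10117 genes). The rho was 0.00964 and -0.104 in GapNC 2 and 3, and 0.0287, -0.336 and -0.376 in GapC9 1 to 3. The result of each of the 10 genes is therefore also given without GapNC 1, which does not correct for GC content in the other libraries.

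Of the 10 genes, 1 passed an adjusted p of 0.05 and was lower in the libraries labelled GapC9 (RNASEH2B), and 0 were higher. Over all 16028 rows tested, 5.1% were called lower and 1.89% higher by the same rule (limma on log2(FPKM + 0.1), Benjamini-Hochberg adjusted over all rows). At an unadjusted p under 0.05, 5 of the 10 were lower (RNASEH2A, RNASEH2B, NONO, SFPQ and PSPC1) and 0 were higher, against 16.8% lower and 9.09% higher of all rows. In 6 of the 10, all 3 GapC9 values were below all 3 GapNC values, which held for 21.6% of all rows, and in 0 were all GapC9 values higher, as in 12.6% of all rows. The median log2 fold change of the 10 was -0.44, beside -0.08 over all rows. All 10 log2 fold changes were below 0, but those of RNASEH1, XRN1, XRN2 and NEAT1 were small against their errors and turned above 0 under at least 1 other scaling, pseudocount or set of libraries. Because these are libraries of bulk cells, fewer cells of a type and less RNA per cell cannot be told apart, and because the labels do not say whether the libraries came from separate cultures, p-values measure only the spread between these libraries.

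**Figure D1:**
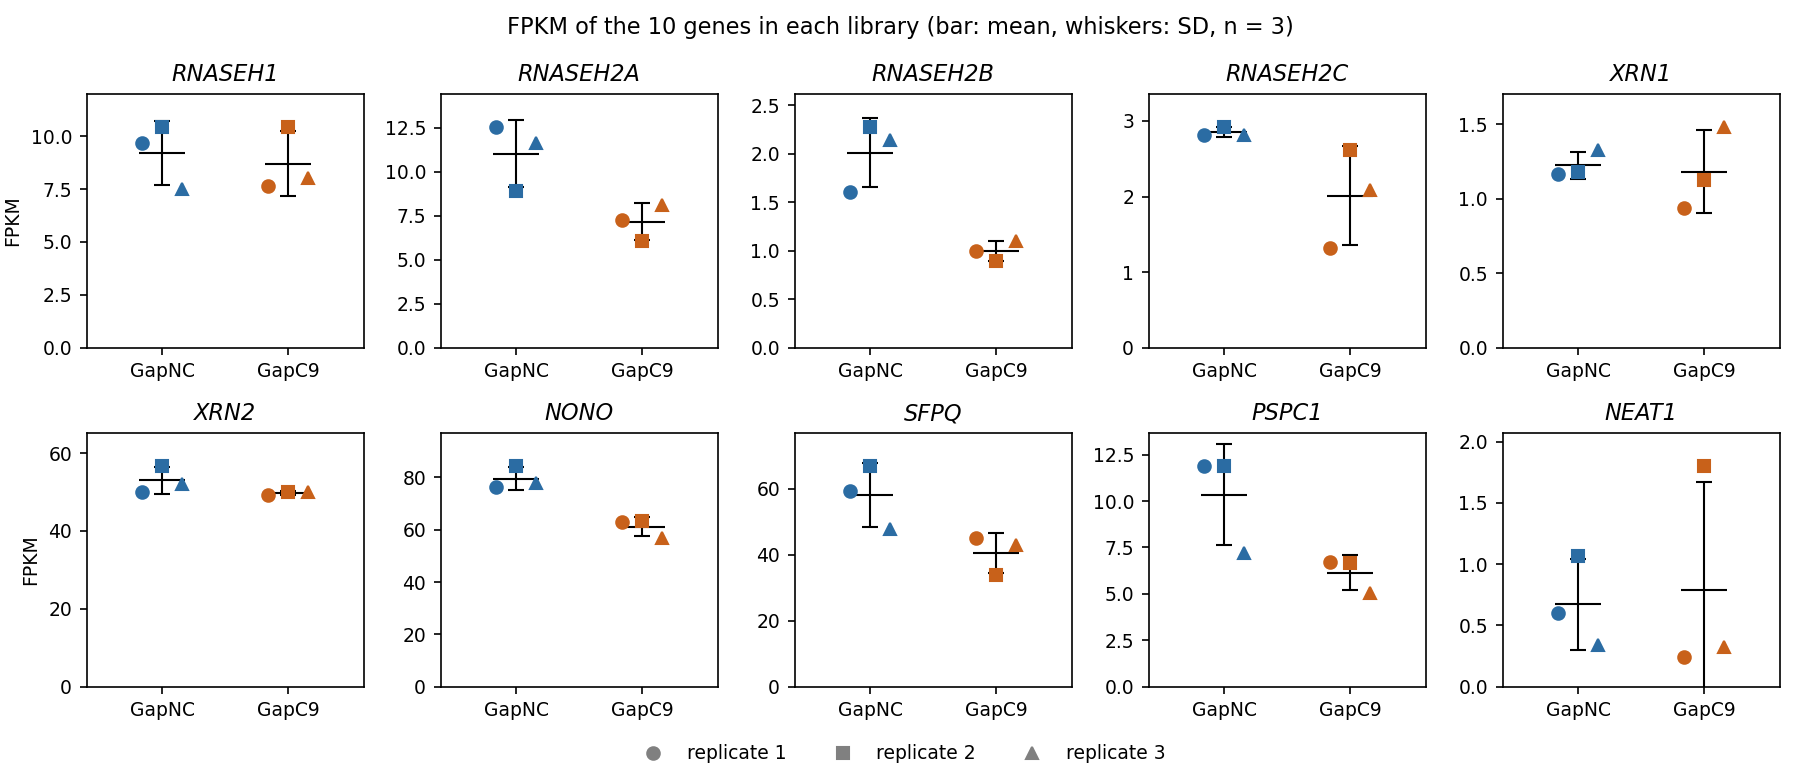
FPKM of each of the 10 genes (y axes start at 0 and differ between panels) in the GapNC (blue) and GapC9 (orange) libraries, with replicates as circle, square and triangle, the mean as a horizontal bar and the SD (n = 3) as whiskers, cut at 0 for NEAT1. The groups are apart for RNASEH2A, RNASEH2B, RNASEH2C, NONO, SFPQ and PSPC1 and mixed for RNASEH1, XRN1, XRN2 and NEAT1.

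RNASEH1, the enzyme through which GapmeRs act, was at similar levels in both groups. RNASEH1 was at 9.69, 10.4 and 7.51 FPKM in GapNC 1 to 3 and at 7.64, 10.5 and 8.01 FPKM in GapC9 1 to 3. The ranges of the groups overlapped, with the highest library in GapC9 and the lowest in GapNC, and replicate 2 was highest in each. The log2 fold change was -0.08 ± 0.18 (SE, 95% interval -0.53 to 0.37, limma adjusted p = 0.819) and -0.04 without GapNC 1 (adjusted p = 0.932), so that neither a fall nor a rise within these bounds was detectable with 3 libraries. The RNASEH1 row was joined by the assembly with AC108488.1 and AC108488.2, and 6 of its 10 listed transcripts carry those names. RNASEH1 lies on chr2:3544793-3558616 (GRCh38, GENCODE release 29, minus strand), where 125 exon bases are shared with the antisense gene RNASEH1-AS1, whose level was 3.40 FPKM in GapNC and 3.03 FPKM in GapC9 (adjusted p = 0.618).

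The subunits of RNase H2 had lower values in the libraries labelled GapC9, of which that of RNASEH2B passed the adjusted threshold. RNASEH2B, the accessory subunit that also tethers the complex to the replication clamp, was at 1.61, 2.28 and 2.14 FPKM in GapNC 1 to 3 and at 0.993, 0.895 and 1.10 FPKM in GapC9 1 to 3. Every GapC9 value was below the lowest GapNC value, that of GapNC 1. RNASEH2B fell from 2.01 ± 0.356 to 0.996 ± 0.102 FPKM (SD, n = 3), with a log2 fold change of -0.93 ± 0.17 (SE, 95% interval -1.36 to -0.51, limma adjusted p = 0.0377). The ratio of means was 0.496, and with limma's unadjusted p of 0.00172 RNASEH2B was also the single one of the 10 to pass a ratio of at most 0.5 with an unadjusted p under 0.05, as 4.32% of all rows did (2.1% passed a ratio of at least 2). With median scaling or quantile normalization neither rule was passed (adjusted p = 0.0593 and 0.0626), with no filter the adjusted p was 0.0711, and without GapNC 2, GapNC 3 or GapC9 2 the rule on the ratio was not passed either. Without GapNC 1 its log2 fold change was -1.08 (adjusted p = 0.0333), whereas without any one of the other 5 libraries the adjusted p was 0.0998 to 0.134. At its reference length of 1629 bases the values correspond to about 35 to 87 fragments per library, for which counting error alone has a coefficient of variation of 10.7 to 16.8%. The row held 11 transcripts of RNASEH2B alone (chr13:50909678-51024120, plus strand). On the other strand GUCY1B2 shares 21 exon bases with it and was at 0.420 FPKM in GapNC and 0.290 FPKM in GapC9 (log2 fold change -0.40 ± 0.20, adjusted p = 0.274), and RNASEH2B-AS1 shares 282 and was at most 0.00910 FPKM.

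RNASEH2A, the catalytic subunit, was at 12.6, 8.89 and 11.6 FPKM in GapNC 1 to 3 and at 7.28, 6.08 and 8.14 FPKM in GapC9 1 to 3. The groups did not overlap, but the lowest GapNC library was close to the highest GapC9 library. Its log2 fold change was -0.61 ± 0.18 (SE, 95% interval -1.05 to -0.17), with an unadjusted p of 0.0143 and a limma adjusted p of 0.0995, which did not pass. Without GapNC 1 it was -0.51 (adjusted p = 0.184), and with GC correction it was -0.40 (adjusted p = 0.163). The row (chr19:12806556-12815201, plus strand) included 1 transcript of THSD8 among 5, and the 2 genes share 1123 exon bases. RNASEH2C, the smaller accessory subunit, was at 2.81, 2.92 and 2.81 FPKM in GapNC 1 to 3 and at 1.32, 2.62 and 2.09 FPKM in GapC9 1 to 3. The coefficient of variation was 2.26% in GapNC and 32.6% in GapC9, with GapC9 1 lowest. Its log2 fold change was -0.54 ± 0.25 (SE, 95% interval -1.14 to 0.07, limma adjusted p = 0.234). It was -0.54 without GapNC 1 (adjusted p = 0.340), -0.27 without GapC9 1 (adjusted p = 0.351) and -0.25 with GC correction (adjusted p = 0.638). RNASEH2C (chr11:65714005-65720947, minus strand) shares 1439 exon bases with KAT5 on the other strand, and KAT5, an acetyltransferase gene, was at 11.0 FPKM in GapNC and 11.3 FPKM in GapC9 (adjusted p = 0.885). How far reads of KAT5 enter the RNASEH2C value was not tested.

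Both exoribonucleases were at similar levels in the 2 groups. XRN2 was at 49.9, 56.8 and 52.2 FPKM in GapNC 1 to 3 and at 49.3, 49.9 and 50.1 FPKM in GapC9 1 to 3. The GapC9 libraries had a coefficient of variation of 0.878% and overlapped GapNC 1. XRN2 had a log2 fold change of -0.09 ± 0.09 (SE, 95% interval -0.30 to 0.12, limma adjusted p = 0.559) and of -0.13 without GapNC 1 (adjusted p = 0.320), the former with the narrowest interval among the 10 genes, and the row has 1 transcript, of 3437 bases (chr20:21303304-21389827, plus strand). It shares 170 exon bases with the antisense gene AL117332.1, which was at 0.163 FPKM in GapNC and 0.342 FPKM in GapC9 (adjusted p = 0.355). XRN1 was at 1.16, 1.18 and 1.33 FPKM in GapNC 1 to 3 and at 0.936, 1.12 and 1.48 FPKM in GapC9 1 to 3. GapC9 held both the lowest and the highest library. Its log2 fold change was -0.07 ± 0.19 (SE, 95% interval -0.53 to 0.40, limma adjusted p = 0.857), and -0.10 without GapNC 1 (adjusted p = 0.818). XRN1 lies on chr3:142306607-142448062 (minus strand), with 10 transcripts in its row, the longest of 10143 bases.

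The 3 DBHS genes of the paraspeckle had lower values in the libraries labelled GapC9 without passing the adjusted threshold. NONO, the most abundant of the 10 genes, was at 76.4, 84.5 and 77.7 FPKM in GapNC 1 to 3 and at 62.9, 63.5 and 56.9 FPKM in GapC9 1 to 3. The groups were well apart, with a coefficient of variation of 5.46% in GapNC and 5.99% in GapC9. NONO had a log2 fold change of -0.38 ± 0.09 (SE, 95% interval -0.60 to -0.16), with an unadjusted p of 0.00542 and a limma adjusted p of 0.0615. It passed in 2 of 17 alternatives, where rows with a mean under 1 FPKM were left out (adjusted p = 0.0495) and after a correction for GC content (0.0459). The adjusted p was 0.0711 without GapNC 1, 0.122 with median scaling, 0.104 with quantile normalization and 0.1203 with no filter. NONO lies on chrX:71283192-71301168 (plus strand), with 16 transcripts in its row.

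SFPQ, the partner with which NONO forms a heterodimer, was at 59.2, 67.0 and 47.7 FPKM in GapNC 1 to 3 and at 45.2, 33.8 and 42.9 FPKM in GapC9 1 to 3. GapNC 3 was just above GapC9 1. The SFPQ log2 fold change was -0.51 ± 0.17 (SE, 95% interval -0.93 to -0.09), with an unadjusted p of 0.0256 and a limma adjusted p of 0.135, and without GapNC 1 these were 0.0703 and 0.238. SFPQ lies on chr1:35176378-35193148 (minus strand), and 4 of the 14 transcripts in its row were assembled by StringTie. PSPC1, the third DBHS protein, was at 11.9, 11.9 and 7.20 FPKM in GapNC 1 to 3 and at 6.71, 6.64 and 5.05 FPKM in GapC9 1 to 3. Here too GapNC 3 was near the GapC9 libraries, and replicate 3 was lowest in both groups. Its log2 fold change was -0.72 ± 0.24 (SE, 95% interval -1.30 to -0.13), with an unadjusted p of 0.0238 and a limma adjusted p of 0.130, and without GapNC 1 these were 0.0789 and 0.251. PSPC1 lies on chr13:19674752-19783019 (minus strand) and shares 36 exon bases with PSPC1-AS2, whose row was joined with MPHOSPH8 and rose from 6.49 to 10.5 FPKM (log2 fold change 0.68 ± 0.14, adjusted p = 0.0429). Strand use in the counting is not stated in the sources used here. Pseudogene copies are annotated for RNASEH1, RNASEH2C, NONO, SFPQ and PSPC1, and how reads were split with them was not tested.

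NEAT1, the lncRNA scaffold, varied more among libraries of a group than between groups. The libraries are of poly(A) RNA and the row pools short and long forms, so the level of the long form alone was not measured. NEAT1 was at 0.603, 1.07 and 0.342 FPKM in GapNC 1 to 3 and at 0.243, 1.80 and 0.320 FPKM in GapC9 1 to 3. Replicate 2 was highest in each group, and GapC9 held both the lowest and the highest library. The coefficients of variation were 54.8% in GapNC and 112% in GapC9, and the log2 fold change was -0.13 ± 0.73 (SE, 95% interval -1.92 to 1.65, limma adjusted p = 0.931), an interval that holds large changes in either direction. Without GapNC 1 it was -0.14 (adjusted p = 0.939). At the length of the short form the values correspond to about 19 to 150 fragments per library. MALAT1, the nuclear lncRNA gene next to NEAT1 (chr11:65422774-65445540, plus strand), was as uneven, at 1.23, 4.33 and 10.5 FPKM in GapNC 1 to 3 and at 6.13, 1.10 and 7.56 FPKM in GapC9 1 to 3. The libraries with high MALAT1 were not those with high NEAT1, and the log2 fold change of MALAT1 was -0.04 ± 0.99 (SE, adjusted p = 0.987).

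**Figure D2:**
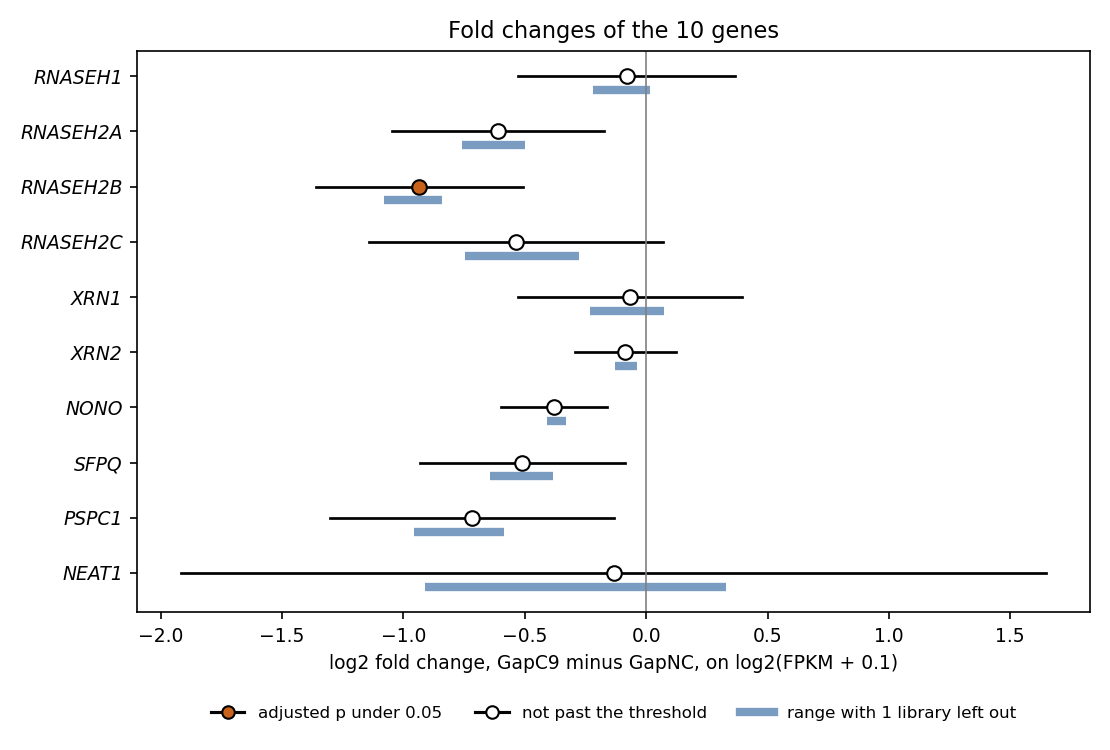
Log2 fold change (GapC9 minus GapNC, on log2(FPKM + 0.1)) of each gene, with the point as the limma estimate, the black line as its 95% interval and the blue bar as the range when each of the 6 libraries is left out in turn. RNASEH2B, at -0.93, is the one filled point (adjusted p = 0.0377), and the blue bars of RNASEH1, XRN1 and NEAT1 cross 0.

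FPKM divides by transcript length, so the levels are set side by side here as an approximate order. The rows of RNASEH1 and RNASEH2A include transcripts of other genes, and the NEAT1 row pools short and long forms. RNASEH2C shares exon bases with KAT5, and expression in GapNC 1 rose with GC content. In GapNC the order of mean levels was NONO (79.5 FPKM), SFPQ (58.0), XRN2 (53.0), RNASEH2A (11.0), PSPC1 (10.3), RNASEH1 (9.21), RNASEH2C (2.85), RNASEH2B (2.01), XRN1 (1.22) and NEAT1 (0.671). The libraries of SFPQ and XRN2 overlapped, as did those of RNASEH2A, PSPC1 and RNASEH1, and each other pair of neighbours was apart. In GapC9 the order was NONO (61.1 FPKM), XRN2 (49.8), SFPQ (40.6), RNASEH1 (8.70), RNASEH2A (7.17), PSPC1 (6.13), RNASEH2C (2.01), XRN1 (1.18), RNASEH2B (0.996) and NEAT1 (0.789). RNASEH1, RNASEH2A and PSPC1 overlapped in turn, and so did the last 4. The ratio of nuclear to cytoplasmic exoribonuclease mRNA, XRN2 to XRN1, was 43.5 ± 4.43 in GapNC and 43.6 ± 9.46 in GapC9 (SD, n = 3). Of the RNase H2 subunits, RNASEH2A was 5.72 ± 1.98 times RNASEH2B in GapNC and 7.18 ± 0.337 times in GapC9, with GapNC 1 (7.82) above all GapC9 libraries. NONO was 1.39 ± 0.204 times SFPQ in GapNC and 1.53 ± 0.301 times in GapC9. RNASEH2A was 1.23 ± 0.353 times RNASEH1 in GapNC and 0.850 ± 0.235 times in GapC9, where GapNC 2 (0.853) lay among the GapC9 libraries (0.581 to 1.02). All 4 ratios overlapped between the groups.

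**Figure D3:**
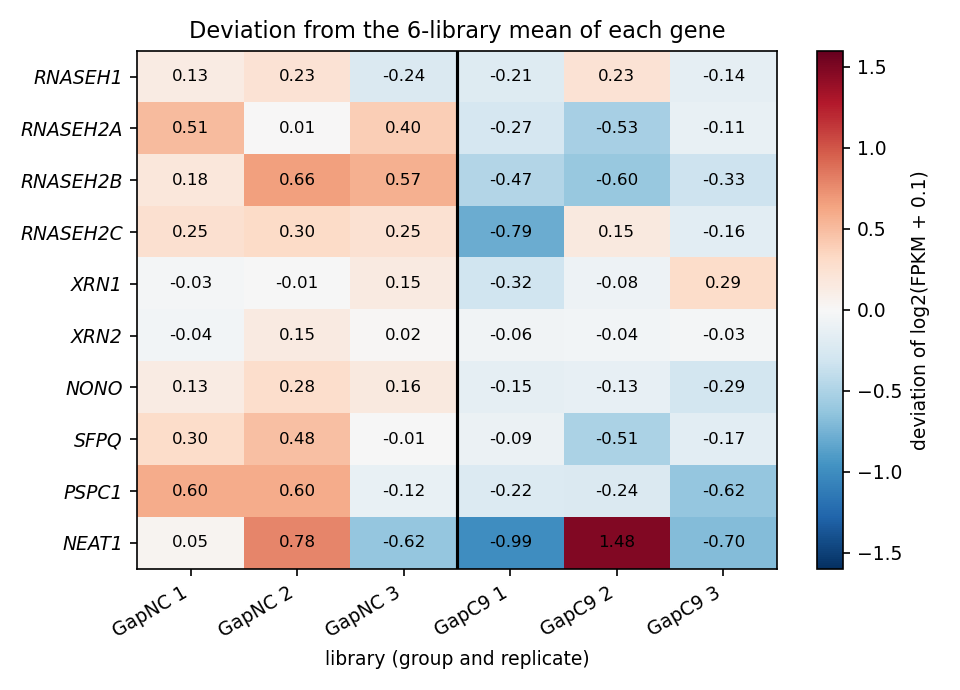
Deviation of log2(FPKM + 0.1) from the mean of the 6 libraries, for each gene (rows) and library (columns, GapNC left and GapC9 right of the line), red above and blue below. RNASEH2A, RNASEH2B and NONO are above 0 in all GapNC libraries, RNASEH2A only just in GapNC 2 (0.01), and below 0 in all GapC9 libraries. NEAT1 is highest in GapC9 2 (1.48) and lowest in GapC9 1 (-0.99).

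The deviations by library fell into distinct patterns. RNASEH2B and NONO were above their mean in every GapNC library and below it in every GapC9 library. RNASEH2A and SFPQ were below theirs in every GapC9 library. However, RNASEH2A was about at its 6-library mean in GapNC 2 (0.01), as was SFPQ in GapNC 3 (-0.01). RNASEH2C was low in GapC9 1 (-0.79) and above its mean in GapC9 2 (0.15). RNASEH1 and NEAT1 moved together, with Pearson's r = 0.926 over the 6 libraries, both high in GapNC 2 and GapC9 2. RNASEH2B and NONO had r = 0.902 and NONO and PSPC1 r = 0.865, which includes the difference between the groups. These are descriptions over 6 libraries that share normalization and group. Among 10032 rows that averaged 1 FPKM or more and were never at 0, the patterns most like that of RNASEH1 were those of UBP1 (r = 0.985), YWHAQ (r = 0.983) and the row of ZNF586, AC010522.1, ZNF587B and ZNF587 (r = 0.978), and 12 rows had r above 0.95. YWHAQ, a 14-3-3 gene, was at 164, 171 and 96.3 FPKM in GapNC 1 to 3 and at 97.3, 171 and 96.3 FPKM in GapC9 1 to 3, so it too was high in GapNC 1, GapNC 2 and GapC9 2. For NEAT1 the closest of 10033 were ABHD17B (r = 0.971), TPI1P1 (r = 0.956) and NSUN4 (r = 0.948), with 2 rows above 0.95.

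Genes that work with the 10 in RNA decay, hybrid removal and paraspeckles were then counted in 7 lists, which together had 138 rows tested. Of these, 8 (5.8%) were lower and 5 (3.62%) were higher in the libraries labelled GapC9 at an adjusted p of 0.05, against 5.1% and 1.89% of all rows. Each of the 13 calls passed in 0 to 2 of the 6 fits that left out 1 library, and their directions stayed the same in all alternatives. Without GapNC 1, 8 rows were lower and 4 higher, and 10 of the 13 calls were kept, those of CNOT4, CNOT9 and HNRNPUL1 being lost.

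The decapping list had 1 of 19 genes higher and 0 lower, and its log2 fold changes had a median of 0.01. The one was DCPS, the scavenger enzyme that hydrolyses the cap left after decay, which rose from 4.82 ± 0.305 to 6.81 ± 0.237 FPKM (log2 fold change 0.49 ± 0.10, adjusted p = 0.0461). Of the exosome and its nuclear adaptors, which degrade RNA from the other end, 2 of 20 rows (19 genes) were lower and 0 higher, with a median of -0.20. EXOSC9, a core subunit, fell from 16.1 ± 1.36 to 10.0 ± 0.217 FPKM (adjusted p = 0.0269), and MPHOSPH6, which binds the nuclear exosome, fell from 21.4 ± 4.81 to 9.07 ± 0.562 FPKM (adjusted p = 0.0267). Deadenylation, the step before decapping, had 3 of 18 genes higher and 1 lower, with a median of 0.35. BTG1, an antiproliferative partner of the CCR4-NOT complex, rose from 2.04 ± 0.0649 to 4.20 ± 0.458 FPKM (adjusted p = 0.0182), CNOT6, one of its deadenylases, rose from 9.35 ± 0.994 to 15.7 ± 1.22 FPKM (adjusted p = 0.0306) and CNOT4, a ubiquitin ligase of the complex, rose from 3.50 ± 0.399 to 5.44 ± 0.363 FPKM (adjusted p = 0.0448). CNOT9, a scaffold subunit, fell from 19.4 ± 1.09 to 8.85 ± 2.54 FPKM (adjusted p = 0.0415). The list thus held calls in both directions.

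Of the other paraspeckle proteins, 29 of 30 had a row (FIGN was not found), and 3 were lower and 0 higher, with a median of -0.22. DAZAP1 fell from 16.3 ± 1.31 to 8.11 ± 0.562 FPKM (adjusted p = 0.0166). HNRNPUL1, in a row joined with CCDC97, fell from 28.8 ± 2.01 to 16.0 ± 2.13 FPKM (adjusted p = 0.0278). Among 25 proteins that bind phosphorothioate oligonucleotides, 2 were lower and 0 higher, with a median of 0.09.

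Factors that resolve RNA-DNA hybrids or end transcription, the nuclear setting of RNase H and XRN2, had 1 of 24 genes higher and 1 lower, with a median of -0.02. TOP1, which relaxes supercoils and also acts on ribonucleotides in DNA, rose from 90.4 ± 14.2 to 143 ± 11.5 FPKM (adjusted p = 0.0438). PCF11, a termination factor that acts with XRN2, fell from 4.94 ± 0.569 to 2.84 ± 0.103 FPKM (adjusted p = 0.0291). The 5 listed Aicardi-Goutières genes, other than those of RNase H2, are mutated in the same interferon disease. Of these 5, 0 were called in either direction by limma and 0 had an unadjusted p under 0.05, with a median of -0.06.

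**Figure D4:**
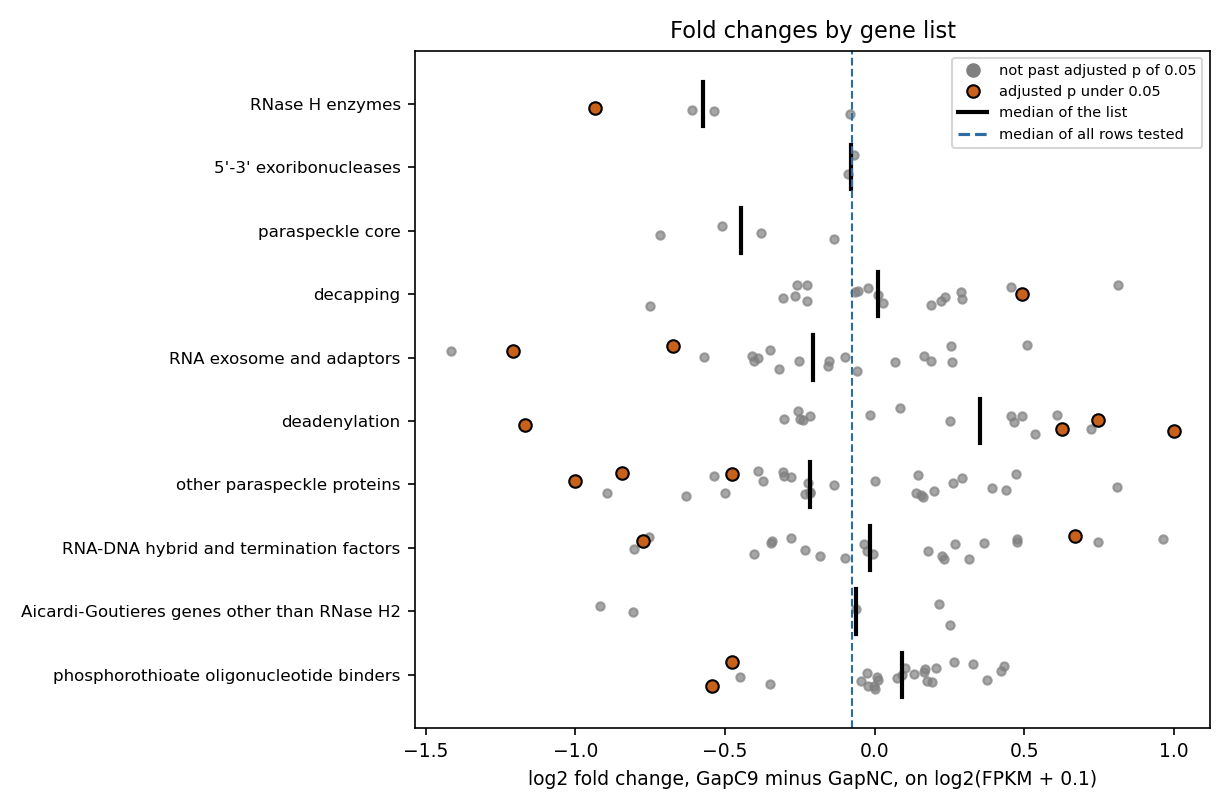
Log2 fold change (GapC9 minus GapNC, on log2(FPKM + 0.1)) of each tested row by list, the 10 genes in the top 3 rows and the 7 lists below, with orange points past an adjusted p of 0.05, black bars at list medians and the dashed line at the median of all rows (-0.08). The medians of the RNase H enzymes (-0.57) and of the paraspeckle core (-0.44) lie to the left of the dashed line. That of the exoribonucleases (-0.08) lies on it. Within the lists, RNASEH1 (-0.08) and NEAT1 (-0.13) lie near the dashed line.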

How the data were processed

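Total RNA was taken from HCT-116 cells and poly(A) RNA was sequenced in 3 GapNC and 3 GapC9 libraries, grouped by the labels. The authors used HISAT for alignment and StringTie for estimates, and deposited these as FPKM for 27918 rows of genes and assembled loci (0 columns of samples were left unused). The submitters' processing notes name HISAT2 2.0, StringTie 1.3.0 and Bowtie 0.12.2, and list the mouse build mm8, whereas the rows carry human gene identifiers, and the human build is not given in the sources used here. FPKM is relative to the mapped fragments of a library, and assembly can join neighboring genes in a row. Depth was taken from the smallest steps between FPKM values, so fragment numbers and the counting error from them are approximate.

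Values were used as deposited. Rows with a mean of at least 0.1 FPKM (16028) were fitted as log2(FPKM + 0.1) with limma 3.58.1 (lmFit and eBayes with trend) in R 4.3.3, all 6 libraries together, and p-values were adjusted by the Benjamini-Hochberg method over all rows. A fold change on this scale understates the change of rows with low values. The study's thresholds, a ratio of means of at least 2 or at most 0.5 with an unadjusted p under 0.05, were a second rule. CASC9 was below the filter. The fit was also run on simulated data with planted changes and independent noise for each row. That simulation had no GC trend and no shared shift of a library, so it does not bear on these. Gene structures came from GENCODE release 29 and promoters from RefSeq, and figures were drawn in Python 3.11.15 with matplotlib 3.10.9. The genes and lists were chosen with earlier results of these data known. Named were the 10 genes, CASC9, MALAT1, listed genes past an adjusted p of 0.05 (up to 5 per list and direction) and the 3 rows most correlated with NEAT1 and with RNASEH1. Of the listed genes past that threshold, 2 are not reported here by name. The rows that overlap the exons of the 10 genes were named after their values were seen. Alternatives were other pseudocounts, filters, scalings and limma options, a replicate block and each library left out.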

Additional observations from a re-analysis of the deposited data

How the results depend on the processing

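The log2 fold changes of RNASEH2A, RNASEH2B, RNASEH2C, NONO, SFPQ and PSPC1 were below 0 in all 17 alternatives. Those that turned above 0 were RNASEH1 with median scaling (0.0084) and GC correction (0.0166), XRN1 with median scaling (0.022) and quantile normalization (0.054), XRN2 with median scaling (0.002) and NEAT1 with a pseudocount of 1 (0.0162). With 1 library left out, the log2 fold change ranged from -0.2192 to 0.0145 for RNASEH1, from -0.2313 to 0.0745 for XRN1 and from -0.91 to 0.3269 for NEAT1. NEAT1 had no value with the filter at 1 FPKM.

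RNASEH2B passed the adjusted threshold in 8 of 17 alternatives. The number of the 10 genes called lower, 1, was 2 with the filter at 1 FPKM and with GC correction (RNASEH2B and NONO in both) and 0 with no filter, median scaling and quantile normalization, where the adjusted p of RNASEH2B was 0.0711, 0.0593 and 0.0626. By the rule on the ratio it was 0 with median scaling and quantile normalization. With 1 library left out, 0 to 1 gene was called by either rule, and 3 to 5 were lower at an unadjusted p under 0.05, with 3 without GapNC 1 and without GapNC 2.

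In the 7 lists, 8 rows lower and 5 higher became 17 and 15 with GC correction, 5 and 2 without the variance trend, 2 higher with no filter, and 0 to 8 lower and 0 to 4 higher with 1 library left out. Over all rows, 817 lower and 303 higher became 346 and 146 with no filter, 1244 and 1088 with GC correction, and 516 lower with quantile normalization, so that lower calls were 72.9% of all calls, 60.5% with median scaling, 59.8% with quantile normalization and 53.3% with GC correction. With 1 library left out, 16 to 570 were lower and 16 to 240 higher, and both were highest without GapNC 1. By the rule on the ratio, 693 lower and 336 higher became 380 and 116 with the filter at 1 FPKM, 555 higher with no filter, and 434 lower with GC correction. The cause was not tested.

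The deviations of same-numbered libraries correlated at 0.113, 0.0362 and 0.0332. These values cannot decide whether the replicate numbers pair the libraries. GapC9 1 and GapC9 3 were most like the GapNC library of their own number, and GapC9 2 was most like GapNC 3. With the replicate number as a block, 0 rows were called in either direction, over all rows, the lists and the 10 genes (RNASEH2B adjusted p = 0.0715). Each of the 10 genes had 1 row, so no summing of rows was possible. In the exact permutation test of each gene alone, the 6 genes without overlap had p = 0.1, the smallest it can give. The smallest fragment numbers were those of NEAT1 (about 19 to 150 per library) and RNASEH2B (about 35 to 87). For NEAT1, counting error alone has a coefficient of variation of 8.16 to 22.8%. Between libraries it was 54.8% in GapNC and 112% in GapC9.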
